A study of Xenopus laevis with 30 samples.

Results

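Glutamate receptor and glutamate transporter genes were followed through the tadpole brain of *Xenopus laevis*, the African clawed frog, in 41 of the 49109 gene rows of the count table. The rows were taken by gene name: 5 for subunits of AMPA receptors (gria), 7 for NMDA receptors (grin), 9 for kainate receptors (grik), 2 for delta receptors (grid), 9 for metabotropic receptors (grm), 2 for the vesicular glutamate transporter slc17a7, and 7 for the uptake transporters slc1a1, slc1a2, slc1a3 and slc1a6. No row was named slc17a6 or slc17a8. *X. laevis* carries a duplicated genome, so that many genes exist as an L and an S copy. The 41 rows held 29 gene symbols, of which 12 had both copies among the rows. RNA was sequenced from midbrains at Nieuwkoop and Faber (NF) stages 44, 46, 55 and 61 (3 samples each), 49 (2 samples) and 66 (1 sample), and from the forebrain, hindbrain and spinal cord at stages 46 (3 samples each) and 49 (2 samples each), 30 samples in all. The animals were albino tadpoles of both sexes. The study's methods call the 3 samples of a stage or region biological replicates and do not say how many animals each held, and they do not describe stages 49 and 66. The forebrain samples held the subcortical forebrain, and the hindbrain samples included the rhombic lip.

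Glutamate is the main excitatory transmitter of the vertebrate brain. It is loaded into synaptic vesicles by slc17 transporters, opens the AMPA, NMDA and kainate receptor channels of the receiving neuron, acts more slowly through the G protein-coupled metabotropic receptors, and is cleared by slc1a transporters of astroglia and neurons. In the optic tectum of the tadpole midbrain, glutamatergic synapses of retinal axons drive the visual responses of tectal neurons, and the subunit makeup of NMDA and AMPA receptors is known to change as such synapses mature in vertebrates.

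Levels are given as CPM, the count of a gene scaled to a fixed total per library, on library sizes scaled by the trimmed mean of M-values over all 30 samples. They were not divided by transcript length and are compared between samples, never between genes. A gene was called where edgeR's quasi-likelihood test gave a Benjamini-Hochberg adjusted p below 0.05 over all genes tested, and fold changes are on the log2 scale with their standard error (SE). All 41 rows passed the filter on low counts in every comparison. In bulk tissue, fewer cells of a type and less RNA per cell cannot be told apart. How reads matching both copies of a gene were counted, and whether strand was used, is not given in the sources used here, so values of copy pairs and of overlapping genes carry that uncertainty.

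The libraries held between 1762544 and 11016124 counts. Of the 30 libraries, 10 stood apart: when each was thinned to the size of the smallest, they showed 42827 to 46638 genes with a count, against 27610 to 32644 in the other 20. These were replicate 3 of the forebrain, hindbrain and spinal cord at stage 46, and 7 of the 8 stage 49 libraries (not replicate 1 of the stage 49 midbrain). The 10 held 1762544 to 4937973 counts, and the other 20 held 6357375 to 11016124. Genes with almost no reads in the midbrain at stages 44, 46, 55 and 61 took 0.541% to 1.87% of the counts in the 10. In the other 20, which include those midbrain samples, they took at most 0.101%. The cause was not tested. The 41 genes took 0.248% to 0.589% of the counts of a library. The 12 midbrain samples of stages 44, 46, 55 and 61 held none of the 10, and their results come first. Neuron markers were found in every group, with a summed level between 1529 and 9925 CPM per sample over 14 rows, none of them at 0 throughout a group.

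In the midbrain, most glutamate receptor and transporter genes were higher at stage 61, during metamorphosis, than at stages 44 and 46. At stage 61, 28 of the 41 genes were called higher than the mean of stages 44 and 46, beside 21.8% of all genes called higher, and 4 were called lower, beside 22% of all genes. Together 32 were called, beside 43.8% of all genes. The median log2 fold change was 0.49 over the 41 genes and 0.01 over all 26681 genes tested. At stage 55, 9 were called higher and 5 lower than at stages 44 and 46 (beside 12.4% and 10.6% of all genes; 14 in all, beside 23%), and the medians were 0.14 and 0.02. The 9 higher genes were called higher at stage 61 too, and 4 of the 5 lower genes were called lower at stage 61. Both comparisons use the same samples of stages 44 and 46, which by itself favours shared calls. The share of all genes called at both stages was not counted. Over the step from stage 55 to stage 61, 14 genes were called, all of them higher, beside 8.52% of all genes called higher and 10.7% called lower (19.2% in all). These comparisons share samples. Without replicate 1 of stage 55 the count of 14 became 9. At a threshold that adds a log2 fold change above 2 in size, 1 gene, grik5-like.1.S, was called at stage 55 and at stage 61, beside 2.95% and 8.26% of all genes. Stage 61 had the highest mean in 33 genes, stage 44 in 5, stage 46 in 2 and stage 55 in 1. The share of all genes with their highest mean at each stage was not counted. Between stages 44 and 46, 0 of the 41 genes were called by edgeR (beside 0.00375% of all genes) or by DESeq2, and 5 had an unadjusted p below 0.05 in edgeR, a threshold at which all genes were not counted.

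**Figure D1:**
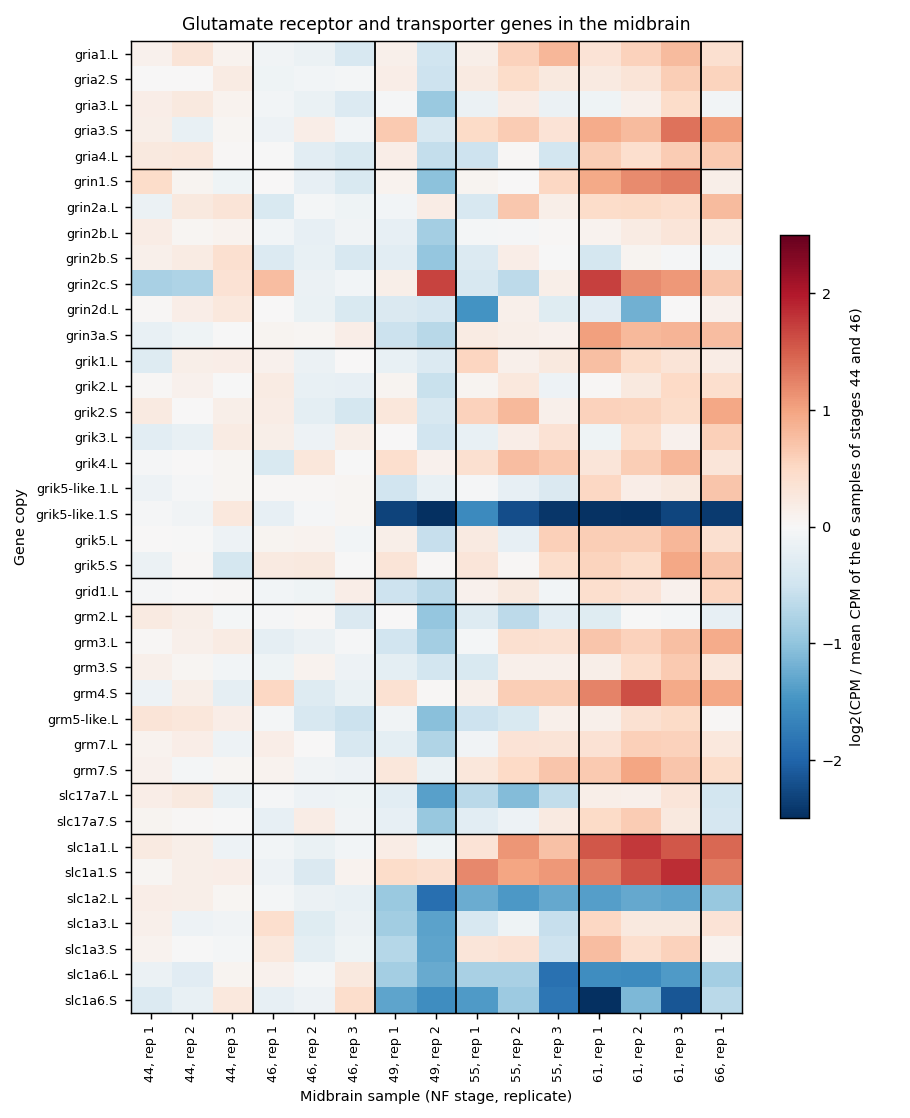
Level of 38 of the 41 genes in each midbrain sample, as the log2 ratio of its CPM to the mean of the 6 samples of stages 44 and 46; columns are samples in order of NF stage, rows are gene copies grouped by family. Red rows at stage 61 cover most families, and grik5-like.1.S, slc1a2.L and both slc1a6 copies are blue from stage 49 on.

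**Figure D2:**
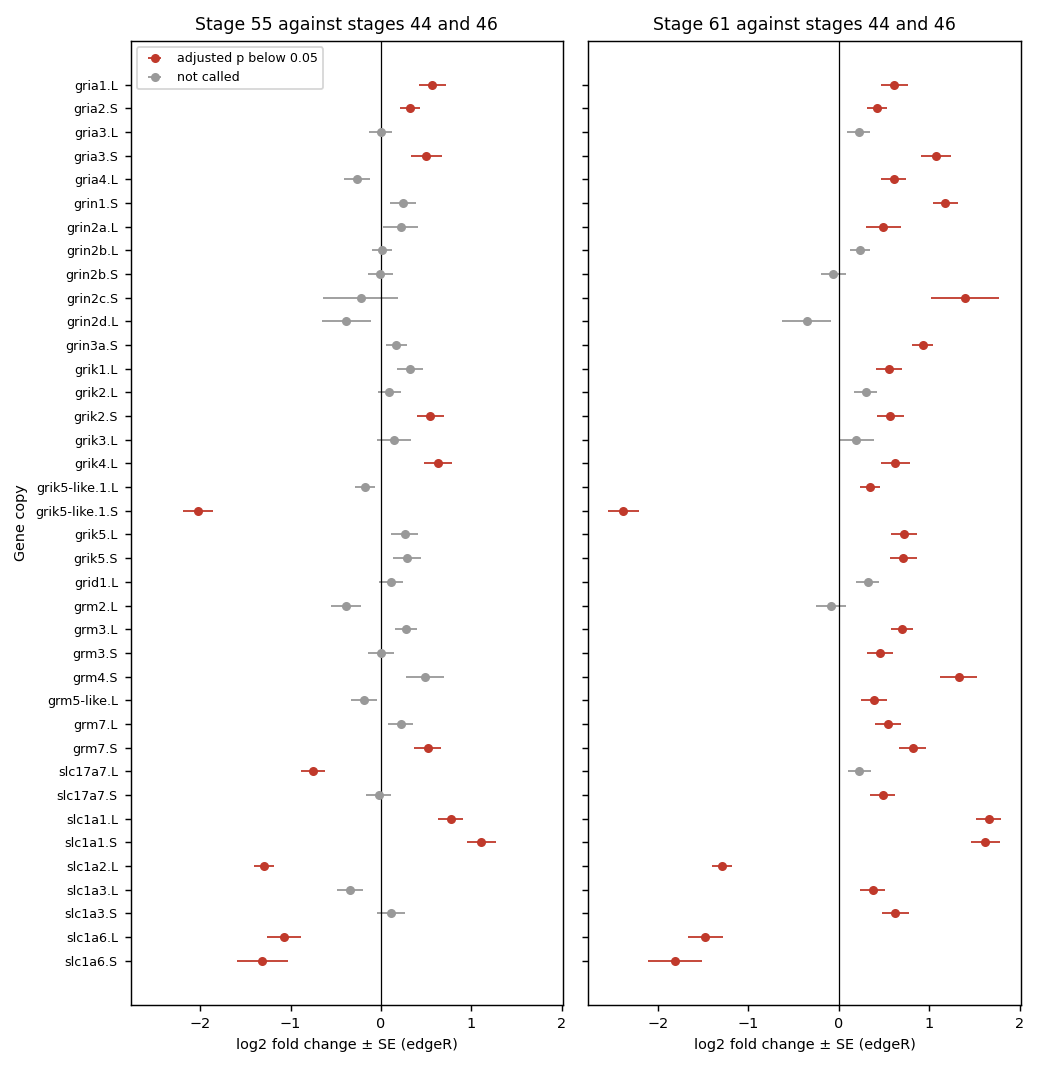
Log2 fold change with its SE of 38 of the 41 genes at stage 55 (left) and stage 61 (right) against the mean of stages 44 and 46, from edgeR; red points have an adjusted p below 0.05. Of the 38 genes drawn, 13 are red on the left and 29 on the right.

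The uptake transporters moved in opposite directions. slc1a1, the neuronal transporter EAAC1 of mammals, rose in both copies. slc1a1.L stood at 51.8 to 67.4 CPM in the 6 samples of stages 44 and 46, at 73.4, 125 and 95.8 CPM at stage 55, and at 169, 198 and 170 CPM at stage 61. The 3 stages did not overlap, and the log2 fold change against stages 44 and 46 was 0.77 ± 0.14 at stage 55 (adjusted p = 0.000414) and 1.66 ± 0.14 at stage 61 (adjusted p = 4.11e-09). slc1a1.S rose with it, by 1.11 ± 0.16 at stage 55 (adjusted p = 4.66e-05) and by 1.62 ± 0.16 at stage 61 (adjusted p = 5.58e-08). Its values were 12.6 to 18.2 CPM early, 37.5, 32.2 and 34.5 CPM at stage 55, and 39.6, 48.8 and 58.5 CPM at stage 61.

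slc1a2, which encodes the glutamate transporter GLT-1 of mammalian astrocytes, fell. slc1a2.L was at 483, 479 and 447 CPM at stage 44, at 417, 393 and 383 CPM at stage 46, at 185, 161 and 178 CPM at stage 55, and at 167, 179 and 174 CPM at stage 61. Every later sample lay below every early one, with log2 fold changes of -1.29 ± 0.11 at both later stages (adjusted p = 3.33e-08 at stage 55 and 4.91e-09 at stage 61). Both copies of slc1a6, known in mammals as the EAAT4 transporter of cerebellar Purkinje neurons, fell as well. slc1a6.L went from 59.9 to 86.2 CPM at stages 44 and 46 to 41.7, 41.5 and 20 CPM at stage 55 and 25, 24.7 and 27.3 CPM at stage 61 (log2 fold change -1.48 ± 0.19 at stage 61, adjusted p = 2.73e-06). slc1a6.S went from 22.7 to 39.2 CPM to 10.9, 15.5 and 8.28 CPM at stage 55 and 4.76, 13.2 and 6.6 CPM at stage 61 (-1.81 ± 0.30, adjusted p = 4.41e-05). Neither copy overlapped its early samples at either later stage.

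slc1a3, which encodes the GLAST transporter of radial glia and astrocytes, followed another course. slc1a3.L stood at 1068, 899 and 917 CPM at stage 44, at 1303, 788 and 886 CPM at stage 46, at 739, 906 and 651 CPM at stage 55, and at 1403, 1164 and 1154 CPM at stage 61. The stage 61 samples overlapped the early ones through replicate 1 of stage 46. slc1a3.L was called higher at stage 61 than at stages 44 and 46 (0.38 ± 0.14, adjusted p = 0.0321), a call that was lost without replicate 2 or 3 of stage 44 or 46, or replicate 1 or 2 of stage 61, each left out alone (0.27 to 0.47 over the 12 fits that left out a library). It rose from stage 55 to stage 61 by 0.71 ± 0.16 (adjusted p = 0.00331). slc1a3.S was at 371 to 526 CPM early, at 545, 563 and 305 CPM at stage 55 and at 747, 589 and 655 CPM at stage 61 (0.62 ± 0.15 against stages 44 and 46, adjusted p = 0.00215). Over the list of radial glia and astrocyte markers, 5 of 8 tested rows were called lower and 1 higher at stage 61, and their summed level was 7582 to 10250 CPM per sample at stage 44, 8859 to 9862 CPM at stage 46, 6897 to 8960 CPM at stage 55 and 1100 to 1685 CPM at stage 61. At stage 55, where slc1a2.L was already at its stage 61 level, 2 of the 8 rows were called lower and 1 higher, and the summed level overlapped that of stage 44. Of all genes, 10.6% were called lower and 12.4% higher at stage 55, and 22% and 21.8% at stage 61. At stage 61 slc1a3 was measured higher beside a lower marker list. The part of cell makeup in either was not tested.

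slc17a7 encodes a vesicular glutamate transporter, and the RefSeq table (Xenopus_laevis_v10.1) gives the L copy the synonyms vglut1, vglut2 and slc17a6. slc17a7.L was at 203, 212 and 157 CPM at stage 44 and at 175, 165 and 166 CPM at stage 46, fell to 113, 85 and 118 CPM at stage 55, and stood at 199, 197 and 221 CPM at stage 61. Stage 55 lay below all other samples of these stages. The 2 stage 49 samples were at 149 and, in the library that stands apart, 70.3 CPM. Stage 55 was not called against stage 49 (-0.17 ± 0.21, adjusted p = 0.678 in edgeR). The fall at stage 55 was -0.76 ± 0.13 (adjusted p = 0.000306), the rise from stage 55 to stage 61 was 0.98 ± 0.15 (adjusted p = 6.67e-05), and stage 61 was not called against stages 44 and 46 (0.22 ± 0.13, adjusted p = 0.156). slc17a7.S was at 61.4 to 80.2 CPM early, at 59, 64.3 and 82.9 CPM at stage 55 and at 98.4, 109 and 83.4 CPM at stage 61. It was called at stage 61 against stages 44 and 46 (0.49 ± 0.14, adjusted p = 0.00695), though not without replicate 2 of stage 61 (0.37, adjusted p = 0.0685), and was not called at stage 55 (-0.03 ± 0.14, adjusted p = 0.924).

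**Figure D3:**
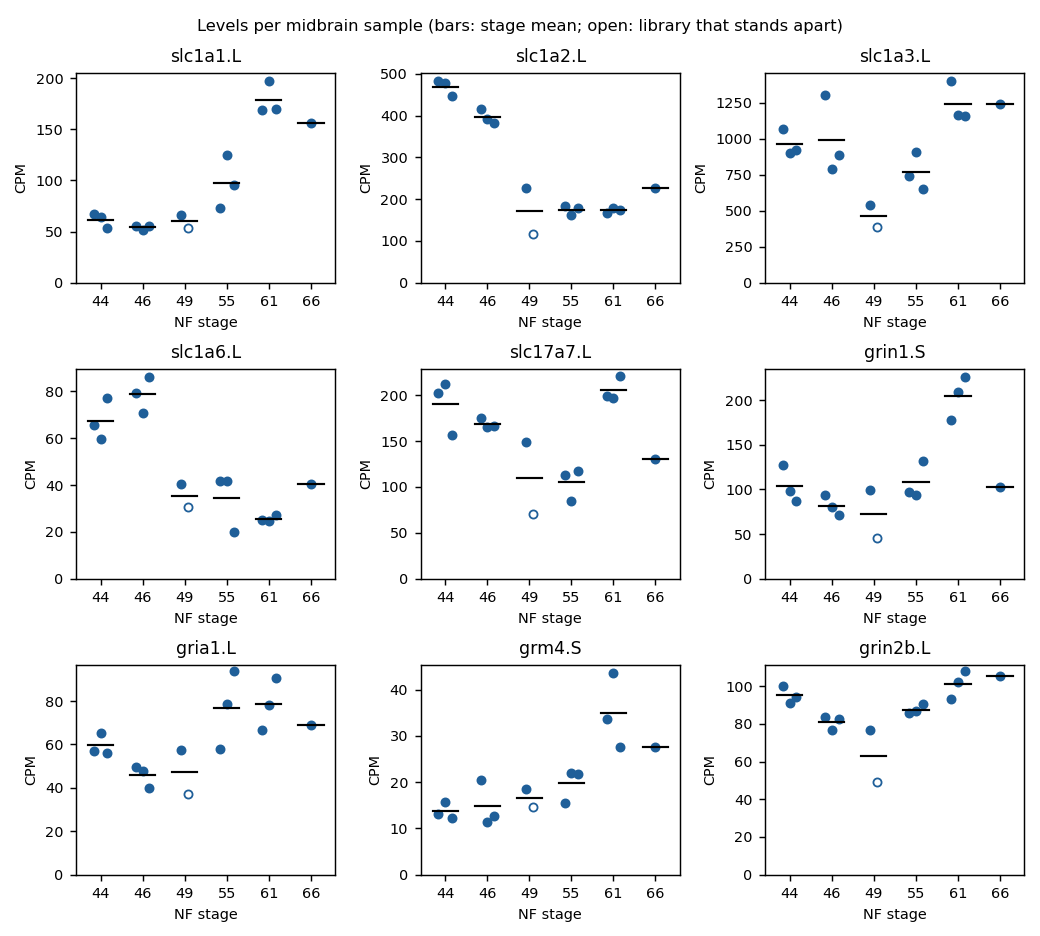
CPM of 9 genes in each midbrain sample by NF stage; points are samples, bars are stage means, and the open point is the stage 49 library that stands apart. slc1a1.L climbs from stage 46 to stage 61, slc1a2.L and slc1a6.L drop between stages 46 and 55, and grin2b.L stays between 49 and 108 CPM. slc17a7.L is lower at stage 55 than at stages 44, 46 and 61, with its stage 49 samples at 149 and 70.3 CPM.

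Among NMDA receptor genes, the subunit that every NMDA receptor requires rose late. grin1.S was at 127, 97.9 and 86.8 CPM at stage 44, at 93.8, 80.9 and 71.3 CPM at stage 46, at 97.6, 93.9 and 132 CPM at stage 55, and at 178, 210 and 226 CPM at stage 61. Stage 61 lay above all other samples, with log2 fold changes of 1.18 ± 0.14 against stages 44 and 46 (adjusted p = 8.25e-07) and 0.94 ± 0.17 against stage 55 (adjusted p = 0.000424). grin3a.S, a subunit that lowers calcium entry through the receptor in mammals, rose in the same step, from 45.3 to 57.8 CPM early and 55.8 to 59.6 CPM at stage 55 to 106, 91.2 and 92.8 CPM at stage 61 (0.93 ± 0.12 against stages 44 and 46, adjusted p = 1.54e-06).

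The GluN2 subunits, which set how long the channel stays open, differed among themselves: at stage 61 grin2a.L and grin2c.S were called higher, as grin1.S was, and both grin2b copies and grin2d.L were not called. grin2b.L was at 76.7 to 100.3 CPM at stages 44 and 46, at 85.8, 86.9 and 90.4 CPM at stage 55 and at 93.3, 102 and 108 CPM at stage 61 (0.23 ± 0.11 at stage 61, adjusted p = 0.0948). grin2b.S was at 72.6 to 127 CPM early and at 71, 101 and 93.6 CPM at stage 61 (-0.06 ± 0.14, adjusted p = 0.747). Neither copy was called in any comparison of these 4 stages, and in both the samples of stages 55 and 61 overlapped the range of stages 44 and 46. The stage 61 samples of grin2b.L lay above those of stage 55 (0.22 ± 0.13, adjusted p = 0.25). The stage 46 samples lay below those of stage 44 in grin2b.L (-0.22 ± 0.13, adjusted p = 0.863) and in grin2b.S (-0.54 ± 0.16, adjusted p = 0.694). grin2a.L, the subunit that joins later in developing mammalian synapses, was at 19 to 31 CPM early, at 18.7, 39.2 and 27.4 CPM at stage 55 and at 34, 34.6 and 33.3 CPM at stage 61. Its call at stage 61 (0.49 ± 0.19, adjusted p = 0.0437) was lost when any of 10 of the 12 libraries (all but replicates 1 and 2 of stage 55) was left out, with fold changes between 0.42 and 0.52. As a share of the reads of grin2a.L and both grin2b copies, grin2a.L took 11.6% ± 1.58 (SD, n = 3) in stage 44 samples, 12.1% ± 1.29 in those of stage 46, 13.3% ± 3.25 by stage 55 and 15.3% ± 1.62 by stage 61; the lowest stage 61 sample, at 14.1%, lay above every sample of stages 44 and 46. grin2c.S, a subunit of cerebellar granule cells in mammals, was at 1.67 to 4.97 CPM early, at 2.23, 1.85 and 3.22 CPM at stage 55 and at 9.52, 6.62 and 6.18 CPM at stage 61, where it did not overlap the earlier samples (1.40 ± 0.38 against stages 44 and 46, adjusted p = 0.00484). Its rise from stage 55 (1.63 ± 0.46, adjusted p = 0.0161) was lost without replicate 2 of stage 55 (1.43) or replicate 1 of stage 61 (1.40). grin2d.L was not called in these comparisons (-0.36 ± 0.27 at stage 61, adjusted p = 0.31).

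Of the 5 AMPA receptor rows, 4 were called higher at stage 61 and 3 at stage 55, beside 21.8% and 12.4% of all genes. gria1.L was at 57, 65.4 and 56.2 CPM at stage 44, at 49.5, 47.9 and 39.9 CPM at stage 46, at 58.1, 78.5 and 93.7 CPM at stage 55 and at 66.7, 78.1 and 90.6 CPM at stage 61. The stage 61 samples lay above all early ones (0.61 ± 0.15, adjusted p = 0.002), while stage 55 overlapped them through replicate 1, and the call at stage 55 (0.57 ± 0.15, adjusted p = 0.0079) was lost without its replicate 3 (0.39, adjusted p = 0.0828). gria2.S, the subunit that makes AMPA receptors impermeable to calcium once its RNA is edited, was at 122 to 151 CPM early, at 153, 180 and 157 CPM at stage 55 and at 153, 165 and 201 CPM at stage 61. It was called at both later stages (0.32 ± 0.11, adjusted p = 0.0419, and 0.42 ± 0.11, adjusted p = 0.0043), but the first call was lost in 9 of 12 fits that left out 1 library (0.26 to 0.36; it held only without replicate 3 of stage 44 or replicate 1 or 3 of stage 61) and the second without replicate 3 of stage 61 (0.29, adjusted p = 0.0703). gria4.L rose only after stage 55, from 37.8, 55.7 and 39.6 CPM to 83.1, 73.1 and 84.8 CPM (0.87 ± 0.17, adjusted p = 0.000719), and stage 61 stood above its early range of 41.8 to 65.2 CPM. gria3.S showed the largest rise of the family against stages 44 and 46, from 17.2 to 22 CPM to 37.6, 34.1 and 50.3 CPM at stage 61 (1.08 ± 0.16, adjusted p = 1.93e-05), and gria3.L was not called (0.22 ± 0.13, adjusted p = 0.162). gria2.S took 31.0% ± 2.78 (SD, n = 3) of the AMPA receptor reads in stage 44 samples, 34.1% ± 2.68 in those of stage 46, 35.7% ± 1.31 by stage 55 and 32.0% ± 0.14 by stage 61. The stage 61 samples, at 31.9% to 32.1%, lay below those of stage 55, at 34.9% to 37.2%, and within the range of stage 44.

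Of the 9 kainate receptor rows, 6 were called higher and 1 lower at stage 61, beside 21.8% and 22% of all genes. grik5-like.1 had the largest difference between its copies. RefSeq gives both copies the synonym grik5. The L copy also has the synonyms kbp and u1, and the S copy has xenu1a-a. The synonym kbp is the name of the kainate-binding proteins known from frogs, birds and fish. grik5-like.1.S was at 185, 179 and 226 CPM at stage 44 and at 165, 185 and 197 CPM at stage 46, then at 62.6, 40.8 and 35.2 CPM at stage 55, and at 34.4, 33.9 and 38.6 CPM at stage 61. No later sample reached 63 CPM, and the log2 fold changes of -2.03 ± 0.17 (adjusted p = 2.78e-08) and -2.38 ± 0.17 (adjusted p = 4.74e-10) were the largest in size of all 41 genes. grik5-like.1.L was at 228 to 259 CPM early, at 245, 217 and 193 CPM at stage 55 and at 355, 281 and 296 CPM at stage 61 (0.35 ± 0.11 at stage 61, adjusted p = 0.0149; 0.23, adjusted p = 0.145, without its replicate 1). The S copy took 44.7% ± 2.24 (SD, n = 3) of the reads of both copies in stage 44 samples, 41.5% ± 2.05 in those of stage 46, 17.2% ± 2.74 by stage 55 and 10.4% ± 1.40 by stage 61. The lowest sample of stages 44 and 46 was at 39.2% and the highest of stages 55 and 61 at 20.3%. In the other 11 symbols with both copies, some also had 1 copy called and 1 not (gria3 and slc17a7 at both later stages, for example), and the difference between the S and the L fold change was at most 0.86 in size over the 3 comparisons.

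Of the other kainate genes, grik4.L, a high-affinity subunit, rose early, from 26.8 to 42.3 CPM to 46, 59.4 and 54.6 CPM at stage 55 (0.63 ± 0.16, adjusted p = 0.00607) and 43, 53.3 and 61.7 CPM at stage 61. grik2.S, a pore-forming subunit, was at 51.3 to 81.9 CPM early, at 104, 122 and 75.9 CPM at stage 55 and at 104, 103 and 95.9 CPM at stage 61. Its stage 55 samples overlapped the early ones, and the call there (0.55 ± 0.15, adjusted p = 0.00935) was lost without replicate 2 of stage 55 (0.40, adjusted p = 0.0887). grik5.L and grik5.S, the copies of another high-affinity subunit, rose alike at stage 61 (0.72 ± 0.14 and 0.71 ± 0.15, adjusted p = 0.00035 and 0.000719), as did grik1.L (0.56 ± 0.14, adjusted p = 0.00292). grik2.L and grik3.L were not called. grid1.L, a delta receptor subunit, was not called at stage 61 (0.32 ± 0.13, adjusted p = 0.0511).

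**Figure D4:**
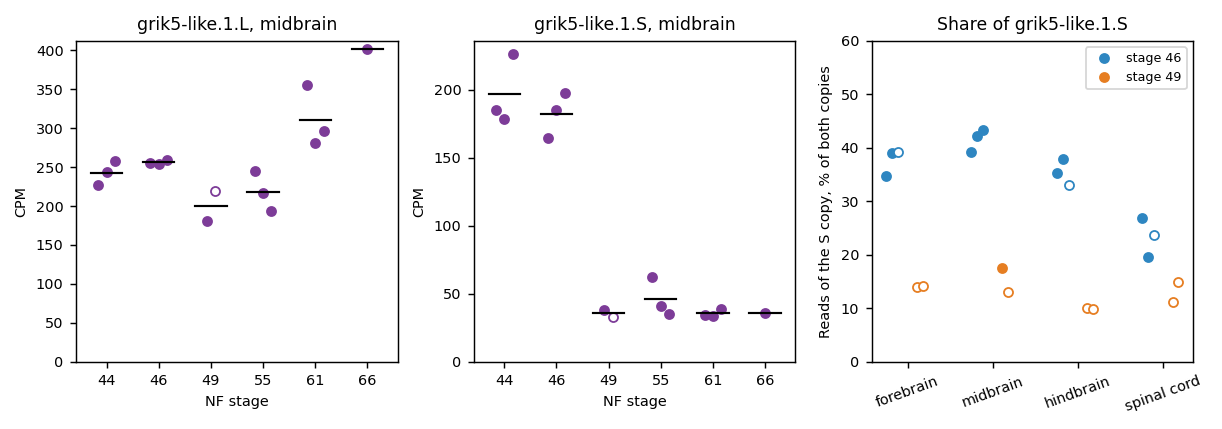
CPM of grik5-like.1.L (left) and grik5-like.1.S (middle) in each midbrain sample by NF stage, with bars at stage means, and the share of the S copy in the reads of both copies in 4 regions at stages 46 and 49 (right); open points are libraries that stand apart. The S copy drops between stages 46 and 49 in the midbrain, and its share is lower at stage 49 than at stage 46 in each region.

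The metabotropic receptors rose broadly at stage 61, where 8 of 9 rows were called, all higher, beside 21.8% of all genes called higher. At stage 55, 2 of the 9 were called higher, beside 12.4% of all genes. grm4.S, a presynaptic receptor that lowers glutamate release, was at 11.4 to 20.4 CPM early, at 15.6, 22 and 21.8 CPM at stage 55 and at 33.7, 43.7 and 27.6 CPM at stage 61, above all earlier samples (1.32 ± 0.21, adjusted p = 2.48e-05). Its rise from stage 55 (0.84 ± 0.24, adjusted p = 0.0193) was lost without replicate 2 of stage 61 (0.63, adjusted p = 0.114), and without replicate 1 of stage 55 (0.69, adjusted p = 0.0887). grm3.L, grm3.S, grm7.L, grm7.S and grm5-like.L rose by 0.39 to 0.82 at stage 61; the call of grm3.S was lost without replicate 3 of stage 61 (0.32, adjusted p = 0.126), and that of grm5-like.L without any of replicates 2 and 3 of stages 44, 46 and 61 (0.30 to 0.48 over all fits that left out a library). grm2.L was the row not called (-0.09 ± 0.16, adjusted p = 0.695).

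Markers of other cells shifted over the same stages. At stage 61, 11 of 14 neuron marker rows were called higher and 1 lower (median log2 fold change 0.63), 6 of 6 oligodendrocyte rows were called higher (median 5.09), and 10 of 10 rows of dividing cells were called lower (median -4.38). Of the tested rows of other lists, 3 of 5 for microglia were called higher. Called lower were 4 of 7 for muscle, 3 of 3 for cartilage, 5 of 5 for epidermis and 3 of 4 for photoreceptors. Red blood cell rows had 2 of 6 higher and 2 lower. Of all genes tested, 21.8% were called higher and 22% lower in this comparison. The summed level of the neuron list was 6289 to 6682 CPM at stage 44, 6313 to 7897 CPM at stage 46, 6567 to 8683 CPM at stage 55 and 8734 to 9925 CPM at stage 61. That of the oligodendrocyte list was 65 to 66.1 CPM, 54.85 to 77.8 CPM, 631 to 1135 CPM and 2342 to 3498 CPM at these stages. For the list of dividing cells it was 844 to 912 CPM, 794 to 906 CPM, 461 to 576 CPM and 75.6 to 88.7 CPM. Of these lists, 0 rows of neurons, oligodendrocytes or dividing cells were at 0 in these stages. The part of these shifts in the rise of the receptor genes was not tested.

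Other genes of glutamatergic transmission were also called higher more often than lower at stage 61. The list held 57 rows of AMPA and kainate receptor auxiliary subunits, scaffolds, kinases, synapse organizers, glutamate metabolism and RNA editing. Against stages 44 and 46, the calls at stage 61 were 33 higher and 6 lower, beside 21.8% and 22% of all genes. For stage 55 they were 8 and 11, beside 12.4% and 10.6%. Over the step from stage 55 to stage 61 they were 22 and 2, beside 8.52% and 10.7%. All 6 tested rows of CaMKII, the kinase that strengthens glutamatergic synapses, were called higher at stage 61 (0.45 to 1.04), as were 10 of 10 rows of synapse organizers, a list of cerebellins, neuronal pentraxins and LRRTM proteins. The scaffolds had 10 of 18 called higher and 1 lower, and the AMPA receptor auxiliary subunits 5 of 12 higher. gsg1l.S, an auxiliary AMPA receptor subunit, had the largest rise (2.68 ± 0.49, adjusted p = 0.00015). Both copies of glul, the glutamine synthetase of astroglia that turns glutamate into glutamine, fell the most (log2 fold change -3.83 ± 0.38 in glul.L, adjusted p = 6.03e-06, and -3.70 ± 0.48 in glul.S, adjusted p = 9.79e-05). glul is also on the list of glial markers above.

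At stage 49 the midbrain had 2 samples, of which replicate 2 stood apart. Against stage 46, 1 of the 41 genes was called higher and 7 lower (8 in all), beside 9.81% and 7.89% of all genes (17.7% in all). All of the 7 lower genes but grin3a.S were uptake transporters or grik5-like.1.S. grik5-like.1.S was at 38.3 and 32.6 CPM at stage 49, already below the range of stage 55 in replicate 2, with a log2 fold change of -2.22 ± 0.23 against stage 46 (adjusted p = 2.51e-06). slc1a2.L was at 228 and 118 CPM (-1.09 ± 0.19, adjusted p = 0.000911), slc1a3.L at 536 and 388 CPM (-0.97 ± 0.21, adjusted p = 0.00463), and slc1a6.L at 40.5 and 30.4 CPM (-1.01 ± 0.24, adjusted p = 0.00711; lost without replicate 2 of stage 49, -1.22 to -0.94 over the fits that left out a library). In each of these 4 genes the replicate that did not stand apart also lay below all stage 46 samples. Without replicate 2 the count was 3 genes, and without replicate 1 it was 13. Without replicate 1 of stage 46 it was 5. From stage 49 to stage 55, 3 genes were called, all higher (beside 2.37% of all genes called higher and 4.98% in all): slc1a3.S, grm3.L and grin3a.S. The count became 17 without replicate 1 of stage 49, 0 without replicate 2, and 1 without any of the 3 samples of stage 55.

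The midbrain at stage 66, the end of metamorphosis, was 1 sample, so its levels are set beside the range of the 3 stage 61 samples without a test. Of the 41 genes, 14 lay above that range, 14 within it and 13 below. The shares of all genes above, within and below their range were not counted. These counts are thus not shown to be particular to the 41 genes. grin1.S stood at 103 CPM, 0.503 of the stage 61 mean. That level lay within its pooled range over stages 44, 46 and 55, though above every stage 46 sample. slc17a7.L and slc17a7.S stood at 131 and 52.8 CPM, 0.637 and 0.545 of the stage 61 mean. slc1a6.S, at 18.1 CPM, was 2.21 times its stage 61 mean and still below its early samples. grik5-like.1.S stayed at 35.9 CPM, and the S copy took 8.22% of the 2434 reads of both copies (95% Wilson interval 7.19% to 9.37%, for counting error only).

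At stage 46 the 4 regions were set against each other, each compared with the mean of the other 3. Most genes called in the forebrain were higher there, and most called in the spinal cord were lower there. In the forebrain 14 genes were called higher and 4 lower, beside 2.53% and 3.12% of all genes (18 in all, beside 5.65%). In the spinal cord 5 were called higher and 16 lower, beside 6.72% and 5.67% (21 in all, beside 12.4%). In the midbrain 5 were called higher and 1 lower (beside 2.33% and 1.94%, 4.26% in all), and in the hindbrain 1 was called higher and 1 lower (beside 0.78% and 0.328%, 1.11% in all). Of the 41 genes, 28 were called between at least 2 regions, beside 16.3% of all genes. The 41 genes were not shifted upward as a whole in either of these 2 regions. Their median log2 fold change was -0.17 in the forebrain and -0.09 in the spinal cord, beside 0.18 and 0.14 over all genes tested. The highest mean was in the spinal cord in 15 genes, the forebrain in 14, the midbrain in 7 and the hindbrain in 5. Called in both the forebrain and the spinal cord were 16 genes, 14 of them higher in the forebrain and lower in the spinal cord, and 2 the reverse. These comparisons share samples. Each region is also part of the mean that the other was compared with, which by itself favours opposite signs. The shares of all genes called in both, or with their highest mean in each region, were not counted. With a log2 fold change above 2 in size as well, 5 genes were called in the forebrain (beside 1.35% of all genes) and 7 in the spinal cord (beside 2.71%).

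Replicate 3 of the forebrain, hindbrain and spinal cord stood apart, and were the lowest of the 3 samples of their region in 38, 38 and 31 of the 41 genes. The share of all genes lowest in these libraries was not counted, so this is not shown to be particular to the 41 genes. Without these 3 libraries, 26 genes were called in the forebrain (beside 14.2% of all genes), 11 in the midbrain (10.7%), 8 in the hindbrain (5.58%) and 29 in the spinal cord (26.5%), and all 18, 6, 2 and 21 genes called with them were among these. Leaving out replicate 1 or 2 of the forebrain, which leaves it with the library that stands apart and 1 other, left 11 and 10 calls in the forebrain, and leaving out replicate 1 of the spinal cord left 13 there. In the midbrain 2 calls were left without any 1 of its 3 samples and 3 without replicate 1 or 2 of the spinal cord. In the hindbrain there was 1 call without its replicate 1 and 5 without replicate 3 of the forebrain. With the replicate number as a block, 22 genes were called in the forebrain, 12 in the midbrain, 3 in the hindbrain and 25 in the spinal cord. The shares of all genes called with the block were not counted.

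slc1a6 showed the steepest order of regions. slc1a6.L was at 440, 389 and 165 CPM in the forebrain, at 79.3, 71 and 86.2 CPM in the midbrain, at 14, 24.6 and 15.9 CPM in the hindbrain and at 4.22, 7.99 and 12.8 CPM in the spinal cord, where the last value of each but the midbrain is the library that stands apart. The 4 regions did not overlap. Neighbours in this order differed between forebrain and midbrain (-2.13, adjusted p = 0.00265) and between midbrain and hindbrain (-2.03, adjusted p = 0.00636), and were not called between hindbrain and spinal cord (-1.15, adjusted p = 0.124). The hindbrain was called lower than the other 3 regions (-1.68 ± 0.33, adjusted p = 0.0143), which was lost without its replicate 1, as was its difference from the midbrain (-1.92 to -1.51 and -2.27 to -1.86 over the fits that left out a library). The log2 fold change in the forebrain against the other 3 regions was 3.86 ± 0.27 (adjusted p = 7.96e-08) with the 3 libraries and 4.31 ± 0.17 without them. slc1a6.S followed, at 227, 229 and 85 CPM in the forebrain, 25.2, 26.5 and 39.2 CPM in the midbrain, 17.3, 11.6 and 6.87 CPM in the hindbrain and 7.34, 2.37 and 6.5 CPM in the spinal cord (3.86 ± 0.28 in the forebrain, adjusted p = 2.62e-07, and -2.88 ± 0.39 in the spinal cord, adjusted p = 8.11e-05). Its hindbrain and spinal cord samples overlapped.

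The other genes high in the forebrain and low in the spinal cord included AMPA, NMDA and metabotropic subunits. gria1.L was at 115, 105 and 42.5 CPM in the forebrain, at 49.5, 47.9 and 39.9 CPM in the midbrain, at 17, 25.7 and 15.2 CPM in the hindbrain and at 4.69, 9.17 and 8.97 CPM in the spinal cord. Only the forebrain and midbrain samples overlapped, through the forebrain library that stands apart. The log2 fold change was 2.23 ± 0.23 in the forebrain (adjusted p = 4.91e-06) and -2.47 ± 0.30 in the spinal cord (adjusted p = 1.62e-05). grm5-like.L, a postsynaptic metabotropic receptor gene, ran alike. It was at 221, 246 and 97.1 CPM in the forebrain, at 114, 90.1 and 81.7 CPM in the midbrain, at 68.1, 75.2 and 47.1 CPM in the hindbrain and at 18.1, 26 and 20.4 CPM in the spinal cord (1.91 ± 0.21, adjusted p = 1.02e-05 in the forebrain and -2.26 ± 0.26, adjusted p = 1.04e-05 in the spinal cord). In both genes the forebrain library that stands apart lay above every spinal cord sample.

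grm2.L, a presynaptic receptor coupled to inhibition of adenylyl cyclase, was lowest in the spinal cord. It was at 0.469, 2.22 and 3.14 CPM there, at 17.2, 14.8 and 9.71 CPM in the hindbrain, at 31.9, 33.4 and 25.5 CPM in the midbrain and at 41.7, 40.9 and 16.8 CPM in the forebrain. The spinal cord samples lay below all others (-3.66 ± 0.41, adjusted p = 6.53e-06), and forebrain and midbrain were not called apart (-0.20, adjusted p = 0.794). The midbrain was called higher than the other 3 regions (1.59 ± 0.28, adjusted p = 0.00262). The 3 spinal cord values rest on 3, 15 and 14 reads, and the highest is the library that stands apart.

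The NMDA receptor genes split by subunit. grin2b.S was at 224, 200 and 73 CPM in the forebrain, at 75.7, 84.8 and 72.6 CPM in the midbrain, at 64.9, 65.2 and 34.6 CPM in the hindbrain and at 34.8, 33.3 and 31 CPM in the spinal cord (forebrain 1.68 ± 0.22, adjusted p = 9.3e-05; spinal cord -1.41 ± 0.27, adjusted p = 0.00146). The forebrain lay above the other regions in replicates 1 and 2, and its replicate 3, which stands apart, lay within the midbrain's range. grin2b.L ran in the same order, with forebrain and spinal cord fold changes of 1.15 ± 0.24 and -1.07 ± 0.27; the first call was lost without replicate 1 or 2 of the forebrain (0.93 to 1.45 over all such fits) and the second without replicate 1 or 3 of the spinal cord (-1.24 to -0.97). grin2a.L instead peaked in the hindbrain, at 48.5, 59.9 and 29.8 CPM, above all samples of the midbrain (19, 23.8 and 22.9 CPM), forebrain (16.4, 12.6 and 11.8 CPM) and spinal cord (18.3, 25.9 and 16.8 CPM). It was the 1 gene called higher in the hindbrain (1.36 ± 0.18, adjusted p = 0.000582; 1.52 ± 0.20 without the 3 libraries). grin2a.L took 5.51% ± 2.81 (SD, n = 3) of the grin2a and grin2b reads in the forebrain, 12.1% ± 1.29 in the midbrain, 22.6% ± 1.86 in the spinal cord and 31.2% ± 2.53 in the hindbrain, with no overlap between regions. These shares set reads of a library against reads of the same library, and the library that stands apart held the highest forebrain share, 8.73%. grin1.S was not called in any region against the other 3, with 70.8, 92.9 and 39.4 CPM in the forebrain and 73.6, 91.4 and 49.3 CPM in the spinal cord.

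**Figure D5:**
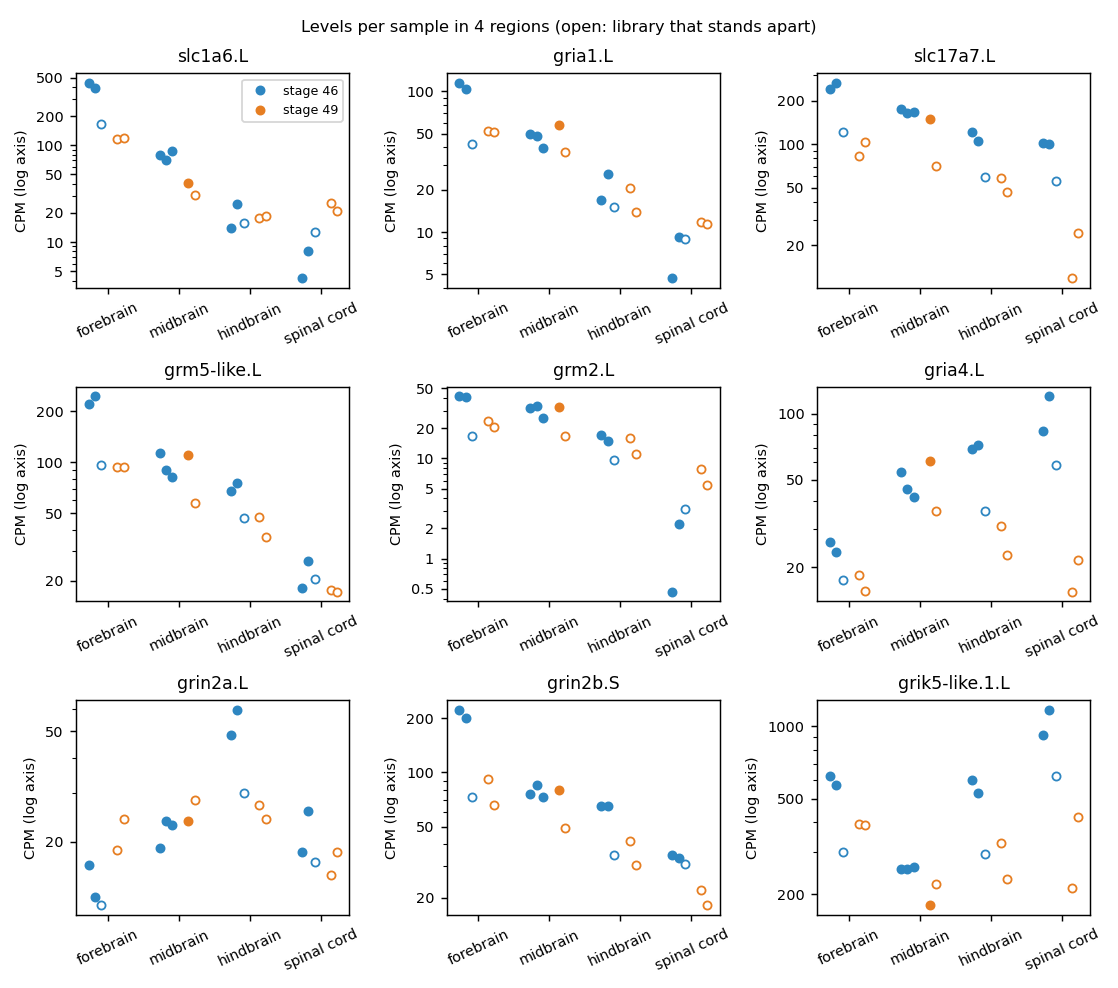
CPM on a log axis of 9 genes in each sample of 4 regions at stages 46 (blue) and 49 (orange); open points are libraries that stand apart. At stage 46 slc1a6.L, gria1.L, grm5-like.L and grin2b.S step down from forebrain to spinal cord, gria4.L runs the other way, and grin2a.L is highest in the hindbrain. At stage 49 grin2a.L overlaps between hindbrain (27 and 24.2 CPM) and midbrain (23.7 and 28.3 CPM).

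The genes higher in the spinal cord than in the other regions were gria4.L, grm4.S, grm7.S, grik2.S and grik5-like.1.L. gria4.L was at 83.1, 120 and 58.1 CPM in the spinal cord, at 69, 72 and 36.2 CPM in the hindbrain, at 54.2, 45.2 and 41.8 CPM in the midbrain and at 26.1, 23.4 and 17.5 CPM in the forebrain (spinal cord 1.13 ± 0.20, adjusted p = 0.000716; forebrain -1.43 ± 0.23, adjusted p = 0.000646). Spinal cord and hindbrain overlapped and were not called apart (0.54, adjusted p = 0.344). gria1.L and gria4.L, subunits of the same receptor family, thus ran in opposite order along the axis, and gria2.S took 51.4% ± 3.59 (SD, n = 3) of the AMPA receptor reads in the forebrain, 34.1% ± 2.68 in the midbrain, 31.1% ± 4.12 in the hindbrain and 21.0% ± 2.27 in the spinal cord. grik5-like.1.L was lowest in the midbrain, at 255, 255 and 259 CPM, and highest in the spinal cord, at 925, 1176 and 622 CPM, with 622, 568 and 299 CPM in the forebrain and 596, 528 and 295 CPM in the hindbrain. All midbrain samples lay below all others (-1.28 ± 0.26, adjusted p = 0.00731), though this call was lost without any 1 midbrain sample (-1.35 to -1.21 over the 12 fits that left out a library). The call of grik2.S in the spinal cord (0.63 ± 0.20, adjusted p = 0.0488) was lost in 10 of 12 such fits, all but those without replicate 3 of the forebrain or hindbrain (0.50 to 0.74). That of grm4.S (1.16 ± 0.26, adjusted p = 0.00562) was lost without replicate 2 of the spinal cord (0.90), and that of grm7.S (0.73 ± 0.19) without its replicate 1 or 2 (0.54 to 0.84 over the 12 fits).

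slc17a7.L and slc17a7.S were called higher in the forebrain (0.94 ± 0.22 and 0.86 ± 0.20, adjusted p = 0.0143 and 0.0107) and lower in the spinal cord (-0.79 ± 0.24 and -0.71 ± 0.21). The forebrain calls were lost without replicate 1 or 2 of the forebrain (0.77 to 1.15 and 0.76 to 1.03 over all fits that left out a library), and the spinal cord calls in 10 of 12 such fits, all but those without replicate 3 of the forebrain or hindbrain (-0.93 to -0.60 and -0.80 to -0.61). slc17a7.L was at 240, 265 and 121 CPM in the forebrain, at 175, 165 and 166 CPM in the midbrain, at 121, 105 and 59.2 CPM in the hindbrain and at 102, 101 and 55.6 CPM in the spinal cord. The forebrain library that stands apart lay below the midbrain samples. slc1a2.L was at 501, 507 and 157 CPM in the forebrain, at 417, 393 and 383 CPM in the midbrain, at 336, 403 and 160 CPM in the hindbrain and at 296, 297 and 154 CPM in the spinal cord. Neither slc1a2.L nor slc1a3.L was called against the other 3 regions with all libraries. Without the 3 libraries, slc1a3.L was called lower in the midbrain (-0.92 ± 0.14, adjusted p = 0.000115) and higher in the spinal cord (0.76 ± 0.15, adjusted p = 0.000546), where it stood at 2543, 2221 and, in the library that stands apart, 1343 CPM. Of 14 rows of neuron markers, 6 were called in the forebrain, all lower, and 5 in the spinal cord, all higher, the reverse of most receptor genes called there. Of all genes, 3.12% were called lower in the forebrain and 6.72% higher in the spinal cord. Oligodendrocyte markers (6 of 6 rows) and muscle markers (6 of 7 rows) were called higher in the spinal cord, with summed levels of 1461 to 2778 CPM and 226 to 545 CPM per sample there, against 70.6 to 81.2 CPM and 31.7 to 60.5 CPM in the forebrain. Cartilage markers (3 of 4 rows) and epidermis markers (2 of 7 rows) were also called higher there, with summed levels of 1776 to 2190 CPM and 750 to 1185 CPM, and none of their samples in the other 3 regions passed 425 CPM and 238 CPM. The part of cell makeup in the regional differences was not tested.

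At stage 49, with 2 samples a region and 7 of 8 libraries standing apart, 2 genes were called in the forebrain, both higher (beside 0.281% of all genes called higher and 0.374% in all), and 0 in the midbrain, hindbrain and spinal cord (beside 0.191%, 0.00842% and 0.281% of all genes). At an unadjusted p below 0.05, edgeR gave 22, 4 and 18 genes in these 3 regions, and DESeq2, run without the filter on low counts, called 13, 0 and 9. Leaving out replicate 2 of the midbrain raised the counts in every region, and leaving out its replicate 1 raised those of the spinal cord and forebrain. Without replicate 2 the midbrain keeps only the library that does not stand apart, so region and that property cannot be told apart. The shares of all genes in these runs and at the unadjusted threshold were not counted. The 2 forebrain genes were the slc1a6 copies: slc1a6.L was at 116 and 120 CPM in the forebrain, 40.5 and 30.4 CPM in the midbrain, 17.9 and 18.8 CPM in the hindbrain and 25.5 and 20.9 CPM in the spinal cord (2.24 ± 0.23, adjusted p = 0.00297), and slc1a6.S at 53 and 47.8 CPM against at most 11.7 CPM elsewhere (2.71 ± 0.25, adjusted p = 0.00212). The forebrain was thus highest at both stages, and the hindbrain and spinal cord changed places for slc1a6.L without being called apart at either. The calls of slc1a6.L and slc1a6.S in the forebrain were lost without replicate 1 of the forebrain, and that of slc1a6.L also without its replicate 2 or replicate 1 of the hindbrain (2.18 to 2.32 over all such fits).

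Between at least 2 regions, 4 genes were called at stage 49 (beside 0.865% of all genes): both slc1a6 copies, gria1.L and grm5-like.L. gria1.L was at 52.7 and 51.5 CPM in the forebrain, 57.6 and 37.1 CPM in the midbrain, 20.5 and 13.9 CPM in the hindbrain and 11.9 and 11.4 CPM in the spinal cord, and was lower in the spinal cord than in the forebrain (-2.07, adjusted p = 0.0273) and the midbrain (-1.87, adjusted p = 0.0485). grm5-like.L was at 94.4 and 93.5 CPM in the forebrain and 17.6 and 17.2 CPM in the spinal cord (-2.34, adjusted p = 0.0373). Each of these 3 calls was lost without any 1 of the forebrain, hindbrain or spinal cord samples (-2.11 to -2.06, -2.16 to -1.54 and -2.37 to -2.34 over the fits that left out a library). The count of 4 fell without any 1 forebrain, hindbrain or spinal cord sample and rose without either midbrain sample. The share of all genes in these fits was not counted.

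The spinal cord's difference from the other 3 regions was itself called different between the 2 stages for 4 genes, slc1a6.L higher and gria4.L, grm4.S and grm7.S lower at stage 49 (beside 0.125% of all genes higher and 1.41% lower, 1.54% in all). The median of this change was -0.42 over all genes tested and -0.79 over the 41 genes. gria4.L, highest in the spinal cord at stage 46, was at 15.5 and 21.5 CPM there at stage 49, below the hindbrain samples at 30.9 and 22.7 CPM and overlapping the forebrain samples at 18.4 and 15.6 CPM. All stage 49 libraries of the spinal cord stood apart, and the calls were lost without either of them.

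grik5-like.1.S was low at stage 49 in each region: 63.3 and 64.3 CPM in the forebrain, 36.1 and 25.3 CPM in the hindbrain and 26.4 and 73.6 CPM in the spinal cord, against 193 to 365, 145 to 324 and 194 to 338 CPM at stage 46. Its share of the reads of both copies, which compares reads within a library, went from 37.6% ± 2.61 (SD, n = 3) to 13.9% and 14.2% in the forebrain, from 35.3% ± 2.47 to 9.98% and 9.83% in the hindbrain, and from 23.4% ± 3.59 to 11.1% and 14.9% in the spinal cord. No stage 49 sample reached the lowest stage 46 share of its region. In the stage 46 libraries that stand apart the share was 39.2% in the forebrain, beside 34.6% and 39.1% in the others, 32.9% in the hindbrain, beside 35.2% and 37.9%, and 23.7% in the spinal cord, beside 26.8% and 19.6%. Stage 49 regions other than the midbrain held only libraries that stand apart, so stage and that property cannot be told apart in them, while in the midbrain replicate 1, which does not stand apart, had a share of 17.5%.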

How the data were processed

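RNA from tadpole brain regions was amplified to cDNA and sequenced as single-end reads. Per the submitters' processing notes and the study's methods, alignment to the v9.2 genome used STAR 2.5.2a and reads per gene were counted with HTSeq 0.11.1; the authors deposited these raw counts for 30 samples, which were used here; the multi-mapping and strand settings are not given in the sources used here. The authors' normalised values, made with DESeq2 1.22.2, were not used. Rows were matched to RefSeq names by symbol (Xenopus_laevis_v10.1, 33 of 41 found), and no coordinates were taken from it.

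Counts were tested with edgeR 4.0.16 (R 4.3.3) by the robust quasi-likelihood test after filterByExpr (minimum count 10, minimum total count 15) and TMM scaling, with Benjamini-Hochberg adjustment over all genes tested: 26681 in the midbrain, 30219 with stage 49 added, 34485 at stage 46, 35609 at stage 49 and 42559 over both stages. One fit was made for the 12 midbrain samples, 1 with the stage 49 midbrain added, 1 per stage for the regions, and 1 over both stages for the difference between them. A library was said to stand apart above 40000 genes detected after thinning to 1762544 reads. The scripts were tested on simulated data. The alternatives were DESeq2 1.42.0 without a filter, RLE scaling, no filter, all 30 samples in 1 fit, the replicate number as a block, a log2 fold change above 2, and leaving out each library. The p-values set a difference against the spread between libraries of the same stage and region, estimated over all groups of a fit. Except with the block, libraries were treated as independent.

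The genes and lists were chosen with earlier results of these data known. Chosen by name, whatever they did, were grin1, grin2a, grin2b, gria1, gria2, slc17a7, slc1a2 and slc1a3. Chosen by size were the 6 called genes with the largest change in each direction between midbrain stages. By region they were the 4 with the largest change at stage 46 and the 2 at stage 49. Their levels were given per sample, as ranges or as shares, and not for every stage and region. Other genes with values were chosen after these were seen. Of the other glutamatergic genes, the 3 with the largest change were named. Precision is limited by the total counts, which were 6960387 to 11016124 in the 12 midbrain samples, 3277179 to 10884064 at stage 46 and 1762544 to 7428758 at stage 49. Some genes are counted among the 41 but are not reported here by name.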

Additional observations from a re-analysis of the deposited data

Results flagged for a closer look

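For 4 genes, the difference between the spinal cord and the other 3 regions itself differed between stages 46 and 49 in edgeR's quasi-likelihood test of the interaction (1 of the 41 genes higher and 3 lower at stage 49, beside 0.125% and 1.41% of all genes, 1.54% in all). The whole comparison lay below 0 in that fit, with a median of -0.42 over all genes tested and -0.79 over the 41 genes. gria4.L, an AMPA receptor subunit, differed from the other regions by a log2 fold change of 1.13 at stage 46 and of -0.48 at stage 49 in the fits made per stage. In the fit over both stages, scaled anew, the difference between the stages was -1.88 ± 0.41 (adjusted p = 0.0224). Its spinal cord samples were at 83.1, 120 and 58.1 CPM at stage 46 and at 15.5 and 21.5 CPM at stage 49. The presynaptic receptors grm4.S and grm7.S ran alike, with differences in that fit of -2.01 ± 0.48 (adjusted p = 0.0396) and -1.58 ± 0.33 (adjusted p = 0.019). grm4.S went from 25.3, 39.6 and 21.1 CPM to 7.9 and 8.18 CPM in the spinal cord, and grm7.S from 43.8, 34 and 26.5 CPM to 15.5 and 10.3 CPM. The transporter slc1a6.L moved the other way, with -3.21 and -0.77 against the other regions in the fits per stage and a difference of 2.17 ± 0.49 in the fit over both (adjusted p = 0.0274). It was at 4.22, 7.99 and 12.8 CPM in the spinal cord at stage 46 and at 25.5 and 20.9 CPM at stage 49.

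Of the 5 spinal cord libraries, 3 stood apart (replicate 3 of stage 46 and both of stage 49), so stage and that property cannot be told apart here. The 4 calls were lost in 7, 12, 8 and 8 of the 20 fits that left out a library (for gria4.L, grm4.S, grm7.S and slc1a6.L), among them every fit without a forebrain, hindbrain or spinal cord library of stage 49, where 0 genes were left; without replicate 1 of the stage 46 spinal cord 2 were left, and without its replicate 2 none. The differences ranged from -2.07 to -1.46, -2.17 to -1.65, -1.70 to -1.18 and 1.79 to 2.65 over these fits. In the forebrain, midbrain and hindbrain, 0 genes were called by edgeR (beside 0.00705%, 0.0258% and 0.00235% of all genes), with 7, 16 and 2 at an unadjusted p below 0.05. The shares of all genes at that unadjusted threshold were not counted.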

How the results depend on the processing

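No fold change of a called gene reversed under any alternative run. Of 197 calls of single genes, DESeq2 without the filter on low counts kept 197, RLE scaling 195, the replicate block 188, edgeR with no filter 183 and a fit of all 30 samples 142. Without the 3 stage 46 libraries that stand apart, 116 of 116 were kept. A fit of the 20 libraries that do not stand apart, chosen after seeing the data, kept 168 of 172.

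Counts of called genes moved by over 1.5 times in these cases. A log2 fold change above 2 left 1 gene at stage 55, 1 at stage 61, 0 for stage 61 against 55, 1 for stage 49 against 46 and 0 for stage 55 against 49; by region at stage 46 it left 5 (forebrain), 0 (midbrain), 0 (hindbrain), 7 (spinal cord) and 8 (any 2 regions), and 2 for the interaction of region and stage. With all 30 samples in 1 fit the counts were 5, 16, 1, 1 and 0 over these midbrain comparisons, 4 in the hindbrain at stage 46, and 5 (forebrain), 11 (midbrain), 8 (spinal cord) and 20 (any 2 regions) at stage 49. DESeq2 without the filter, which changes the tool and the filter at once, gave 14 in the midbrain and 7 in the hindbrain at stage 46, 13 (midbrain), 9 (spinal cord) and 19 (any 2 regions) at stage 49, and 17 for the interaction. Without the 3 libraries that stand apart the counts were 11 in the midbrain and 8 in the hindbrain at stage 46 and 15 for the interaction, and with the 20 other libraries 12 and 8. With edgeR and no filter the interaction had 1. At a log2 fold change above 2, the shares of all genes called were 2.95%, 8.26%, 3.33%, 7.09% and 1.93% over the midbrain comparisons. By region at stage 46 they were 1.35%, 1.2%, 0.31% and 2.71%. In the fit without the 3 libraries they were 10.7% in the midbrain and 5.58% in the hindbrain. Shares of all genes are not given here for the other counts. Those changes are thus not shown to be particular to the receptor and transporter genes. The causes were not tested.

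Replicate numbers were not taken as pairs, since no label says that they mark shared animals and not every pair of regions or stages correlated. Deviations of same-numbered samples correlated at -0.06 to 0.06 between midbrain stages and at -0.49 to 0.32 at stage 49. At stage 46 they correlated at 0.45 to 0.82 in all 9 pairs among forebrain, hindbrain and spinal cord, where replicate 3 is the library that stands apart, and at 0 to 0.05 in the 9 pairs with the midbrain. The replicate block moved the counts from 6 to 12 in the midbrain at stage 46, to 1 between any 2 regions at stage 49 and to 8 for the interaction. In the midbrain stage comparisons it gave 14, 32 and 13. Shares of all genes under the block were not counted.

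Leaving out 1 library at a time gave 11 to 15 genes at stage 55, 27 to 32 at stage 61, 9 to 16 for stage 61 against 55, 0 to 0 for stage 46 against 44, 3 to 13 for stage 49 against 46 and 0 to 17 for stage 55 against 49. At stage 46 it gave 10 to 22 (forebrain), 2 to 7 (midbrain), 1 to 5 (hindbrain), 13 to 22 (spinal cord) and 20 to 31 (any 2 regions), at stage 49 0 to 11, 0 to 25, 0 to 5, 0 to 18 and 0 to 29 in the same order, and 0 to 6 for the interaction. Where this left 1 sample of a region or stage, that sample was assumed to vary like the other groups. Shares of all genes called were not counted over these runs. Depth limits the stage 49 regions most, where 7 of 8 libraries held 1762544 to 4937973 counts.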
